A study of Mus musculus with 8 samples.

Results

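Among mature oligodendrocytes of mice that lack microglia, the cells of the cluster Oligo3 were split by whether a transcript of the complement gene *C4b* (chr17:34728380-34743882 on the minus strand, GRCm38) had been counted in them. The members were the *Fire* Δ/Δ (KO) cells that the authors placed in Oligo3, and a cell with at least 1 *C4b* UMI (a unique molecular identifier, 1 counted transcript) was called *C4b*-positive. Of 3216 KO Oligo3 cells, 1047 were *C4b*-positive and 2169 were *C4b*-negative, out of 12581 oligodendrocytes in the series. Both groups were compared within each library, so that genotype, animal and tissue were the same on both sides.

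The libraries were 10x single-cell RNA sequencing of hippocampus and of cortex. They came from 2 female KO mice, mouse 3 at 1 month and 18 days and mouse 6 at 1 month and 16 days of age, and from 2 female wild-type (*Fire* +/+, WT) mice of the same ages, mouse 1 and mouse 4. KO mice lack FIRE, an intronic enhancer of the growth factor receptor gene *Csf1r*, in all their cells, and have no microglia but keep other macrophages of the brain. Tissue was dissociated in the presence of the transcription inhibitor actinomycin D and cells were sorted by scatter. The clusters Oligo1 to Oligo4 are the authors' own, drawn on the expression of these same cells, and Oligo1 held 1552 KO and 6 WT cells.

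*C4b* encodes complement component C4, which is cleaved by proteases of the classical and lectin pathways and then deposits on surfaces. *Serpina3n* encodes a secreted serine protease inhibitor of the acute phase. Both genes are known markers of oligodendrocytes in injured, aged or diseased brain and spinal cord. Oligodendrocytes make the myelin sheath, and mature ones differ among themselves in genes of myelin, metabolism and signalling.

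The labelled cell type held in both groups by its defining markers. *Mog*, *Mag* and *Mbp*, structural genes of myelin, had a UMI in all cells of either group. *Csf1r*, *Tmem119*, *C1qa*, *C1qc* and *Trem2*, which mark microglia, had no UMI in *C4b*-positive cells of any KO library, and were found in at most 0.336% of *C4b*-negative cells of a library. Of the cell barcodes, 21 occurred in more than 1 library, none of them among KO Oligo3 cells.

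The share of *C4b*-positive cells differed between KO libraries. In hippocampus 35.7% of Oligo3 cells of mouse 3 were positive (95% Clopper-Pearson interval 33.0 to 38.5, 435 of 1218 cells) and 30.2% of those of mouse 6 (27.2 to 33.4, 268 of 887). In cortex 22.4% were positive in mouse 3 (19.1 to 25.9, 135 of 604) and 41.2% in mouse 6 (36.9 to 45.6, 209 of 507). These intervals cover counting error only. The cortex was the lower tissue in mouse 3 and the higher one in mouse 6, so the mice gave no common order of the tissues. The matrix holds no cell type that should lack *C4b*. In WT Oligo3 the share was 4.71 to 11.8%, with median depths of 9085 to 13072 UMIs per cell in the groups of a library, beside 8872 to 13286 in KO. Free RNA of other cells can give a droplet a UMI, and its part in these shares was not tested. In the other KO clusters 98.8% of Oligo1, 52.0% of Oligo2 and 60.8% of Oligo4 cells were positive over all 4 libraries.

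The threshold of the split lay between no UMI and 1 UMI. The *C4b*-positive cells held 1 to 29 *C4b* UMIs, with a median of 2. Just inside the threshold were 363 cells with 1 UMI, whose *C4b* level ranged from 0.51 to 1.33 with a median of 0.81, and all 2169 cells outside it were at 0. Levels here and below are log2(UMIs over the cell's size factor + 1), a scale on which a difference understates the change of genes with few UMIs. A further 161 positive cells had 2 UMIs and 523 had 3 or more. The mean *C4b* level of positive cells was 1.87, 1.66, 1.51 and 1.63 in hippocampus of mice 3 and 6 and cortex of mice 3 and 6, against 3.36 to 3.51 in Oligo1 cells of the same libraries. Positive WT Oligo3 cells stood lower, at a mean of 1.06 over 4 libraries. These values chose the members or come from the same gene, and they are given as a description.

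**Figure D1:**
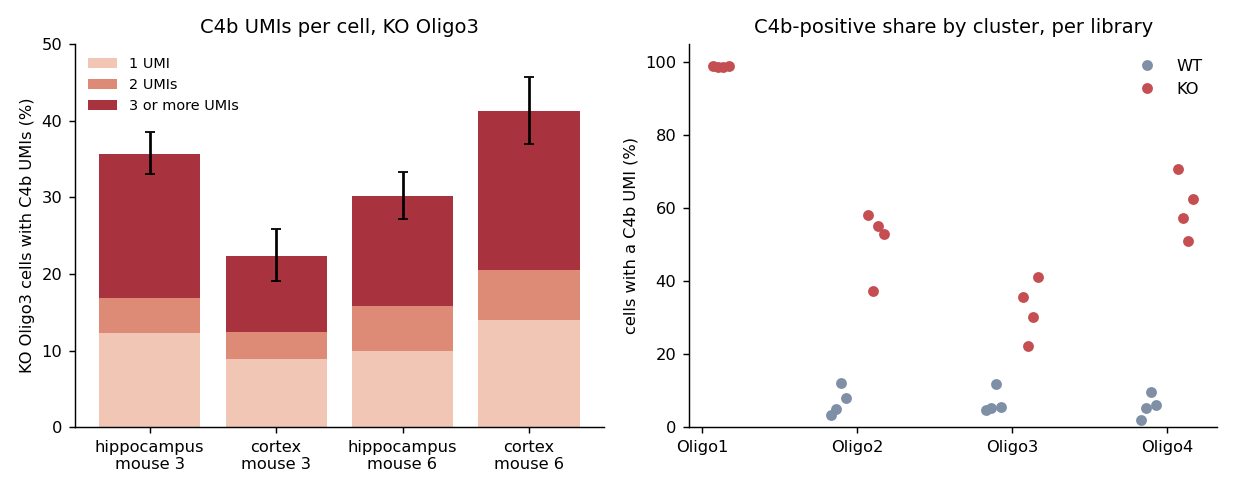
Left, percent of KO Oligo3 cells with 1, 2 or 3 or more *C4b* UMIs in each library, with the 95% Clopper-Pearson interval of the whole positive share. Right, percent of cells with a *C4b* UMI by cluster, 1 point for each library with at least 20 cells of the cluster; in Oligo3 the KO libraries lie at 22.4 to 41.2% and the WT libraries at 4.71 to 11.8%.

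Sequencing depth differed little between the groups. The median number of UMIs per cell was 8910 in positive and 8872 in negative cells in hippocampus of mouse 3, and 10428.5 and 10083 in hippocampus of mouse 6. In cortex it was 12953 and 13286 in mouse 3, and 12464 and 12519.5 in mouse 6. The mean difference was -1.25 UMIs (SD 280, n = 4 libraries), with positive cells deeper in 2 libraries (exact permutation test by sign flips, two-sided, p = 1, where 0.13 is the smallest p that 4 libraries allow). Other measures of the cells kept 1 direction. The median share of mitochondrial UMIs was 5.33% ± 0.770 (SD, n = 4) in positive and 6.00% ± 0.684 in negative cells, lower in positive cells of 4 of 4 libraries (exact permutation p = 0.13). Positive cells also came more often from the authors' finer cluster 5, at 33.3 to 53.7% of cells of a library against 23.8 to 38.3% of negative cells (higher in 4 of 4 libraries, exact permutation p = 0.13). The remaining cells of both groups were in finer cluster 3.

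Which other genes differed with *C4b* among cells of 1 cluster and 1 library was asked with limma, fitted to the 4 within-library differences of 9158 genes, those with a UMI in at least 5% of KO Oligo3 cells. At a Benjamini-Hochberg adjusted p of 0.05, 296 genes (3.23% of those tested) were called, 162 higher (1.77%) and 134 lower (1.46%) in *C4b*-positive cells. With the negative cells of each library reweighted to the depth of the positive cells 284 genes were called (3.1%), and 252 genes (2.75%) were called in both fits with 1 sign in all 4 libraries. Of these 137 were higher and 115 lower. The filter is over both groups together: 50 tested genes were under 5% in negative cells, of which 7 were called higher, and 92 were under 5% in positive cells, of which 4 were called lower. Such genes passed the filter through the group where they were high, and for those named below (*H2-D1*, *Snx10*, *Anxa4* and *Gabrr2*) the level difference of the split is given with no p. limma shares an estimate of the spread among genes, worth 45.6 degrees of freedom here beside the 3 that a gene's own 4 differences give. With each gene's own spread alone no gene passed (0 of 9158 by limma without moderation, 886 at an unadjusted p of 0.05; DESeq2 called 102 and edgeR 356). For each gene printed with a p of the first fit the 4 differences, their range or their SD is therefore given. The p-values for finer clusters and for comparisons between genotypes or clusters are printed without them. The adjusted p-values below are those of limma with the shared spread. The p-values measure the spread over 4 libraries of 2 animals.

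**Figure D2:**
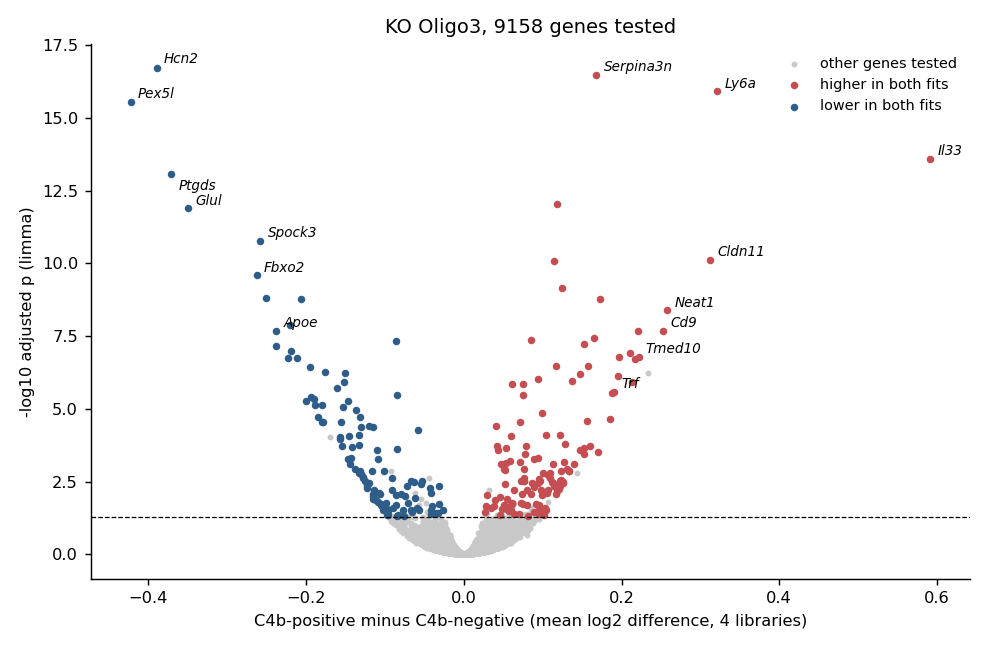
Mean within-library difference of 9158 genes between *C4b*-positive and *C4b*-negative KO Oligo3 cells (x axis, log2) against -log10 of limma's adjusted p (y axis; dashed line, 0.05). Coloured points are the 252 genes called in the first and in the depth-matched fit with 1 sign in all libraries; *Il33* lies farthest to the right at 0.59 and *Pex5l* farthest to the left at -0.42.

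*Serpina3n*, at chr12:104406729-104414329 on the plus strand, was higher in *C4b*-positive cells of every library. Its level was 0.26, 0.24, 0.19 and 0.19 in positive cells and 0.08, 0.06, 0.02 and 0.05 in negative cells of hippocampus of mice 3 and 6 and cortex of mice 3 and 6, the order in which values of 4 libraries are given throughout. The positive values lay above the negative values without overlap, and the mean difference was 0.17 ± 0.01 (SE; SD of the 4 differences 0.02, adjusted p = 3.4e-17). A *Serpina3n* UMI was found in 22.3% of positive and 6.07% of negative cells on average over libraries. The ratio of mean normalised UMIs was 3.53, 4.62, 8.56 and 4.05 in the 4 libraries, with a geometric mean of 4.88. Oligo1 cells of the same libraries had a level of 1.70 to 2.07, above all positive Oligo3 groups.

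*Il33* had the highest difference of all genes tested on the mean log2 scale. Its ratio of mean normalised UMIs, 1.59, was below that of *H2-D1* (5.11), *Serpina3n* (4.88) and *Ly6a* (2.46). It encodes interleukin 33, an alarmin kept in the nucleus that mature oligodendrocytes are known to express, and lies at chr19:29925114-29960718 on the plus strand. Its level was 2.52, 1.80, 2.42 and 1.77 in positive and 1.62, 1.01, 2.07 and 1.44 in negative cells of the 4 libraries. The levels of the groups overlapped between libraries, but within each library the positive cells were higher, by 0.90, 0.80, 0.35 and 0.33. The mean difference was 0.59 ± 0.05 (SE; SD 0.30, adjusted p = 2.5e-14). When limma was set to give outlying genes a spread nearer their own, the adjusted p of *Il33* was 0.24, so this call rests on the shared spread. The difference was larger in hippocampus than in cortex of the same mouse by 0.51 (adjusted p = 1.3e-18 by limma with the shared spread over 2 mice, 1 of 5 genes or 0.0546% called, a comparison added after seeing the data).

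*Ly6a*, which encodes the surface protein Sca-1, lies at chr15:74994877-74998031 on the minus strand. Its level was 0.64, 0.69, 0.80 and 0.53 in positive cells and 0.30, 0.32, 0.37 and 0.38 in negative cells. The groups did not overlap, and the difference was 0.32 ± 0.02 (SE; SD 0.12, adjusted p = 1.2e-16; 0.13 when outlying genes were given a spread nearer their own). *Ly6a* is also on the list of endothelial markers, whose 8 genes together made 2.41 to 2.78 UMIs per 10000 in positive and 0.904 to 1.09 in negative cells. Within that list *Ly6a* had a UMI in 27.8 to 38.5% of positive cells of a library, while *Cldn5* and *Cdh5*, which define endothelial cells, had one in 0 to 0.957% and 0 to 0.478%, against 0.426 to 1.13% and 0 to 0.671% of negative cells. *Pecam1* (0.741 to 1.44% against 0.213 to 0.485%), *Itm2a* (0.920 to 1.48% against 0.213 to 0.808%) and *Flt1* (0.373 to 2.87% against 0 to 0.969%) reached higher shares in positive cells, and *Slco1a4* was at 0 to 1.12% against 0 to 0.808%. The part of endothelial RNA in the *Ly6a* difference was not tested. *Ly6c1*, the other endothelial gene tested, was called higher by 0.03 (SD 0.01, adjusted p = 0.021), and in 1 of the 6 fits that left out a library or a mouse. *Ly6a*, *Ly6c1*, *H2-D1* and *Serpina3n* have close copies in the genome, so the split of reads among copies is uncertain.

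**Figure D3:**
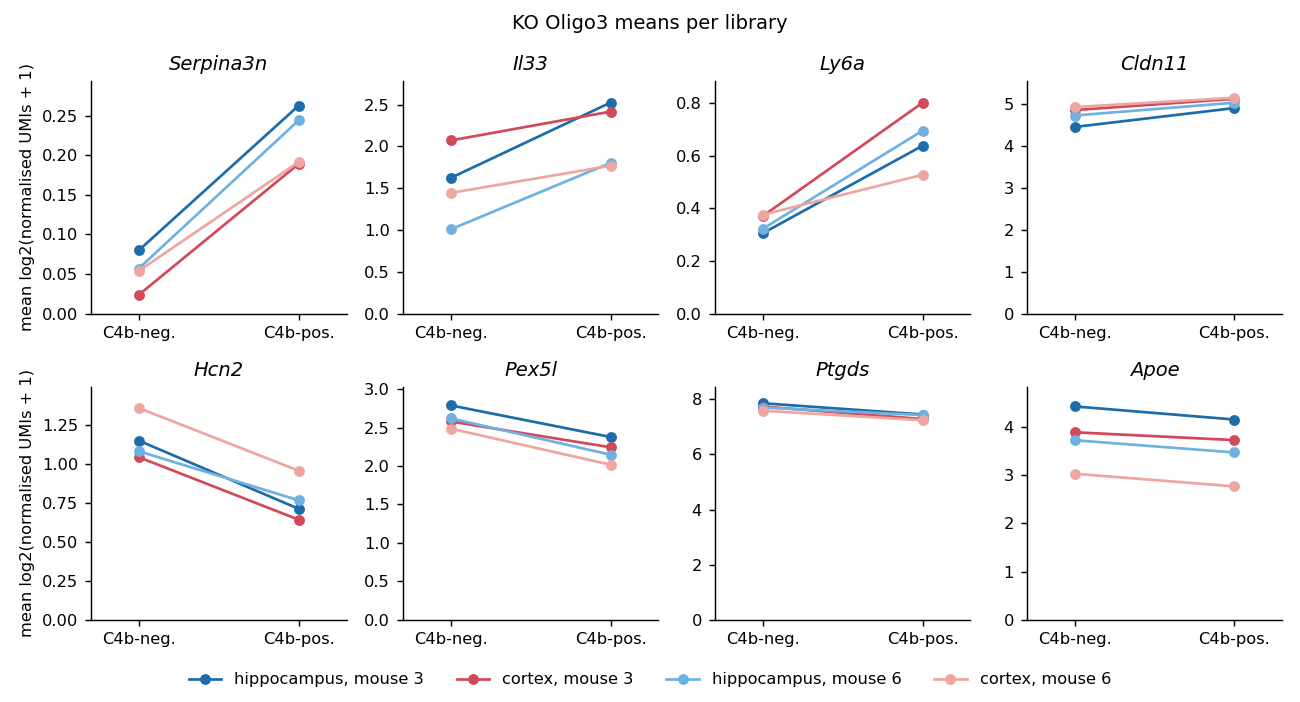
Mean level, log2(normalised UMIs + 1), of 8 genes in *C4b*-negative and *C4b*-positive KO Oligo3 cells; each line joins both groups of 1 library. *Serpina3n*, *Il33*, *Ly6a* and *Cldn11* are higher and *Hcn2*, *Pex5l*, *Ptgds* and *Apoe* lower in positive cells of all 4 libraries.

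Some genes of myelin were higher in *C4b*-positive cells and most were not called. *Cldn11*, which forms the tight junctions of the myelin sheath, had 4.89, 5.02, 5.11 and 5.14 in positive and 4.44, 4.72, 4.84 and 4.92 in negative cells. The difference was 0.31 ± 0.03 (SE; SD 0.10, adjusted p = 7.7e-11) and was largest in hippocampus of mouse 3. The tetraspanin gene *Cd9* differed by 0.30, 0.33, 0.13 and 0.25, with a mean of 0.25 (SD 0.09, adjusted p = 2.0e-08). *Mal*, a proteolipid of myelin rafts, differed by 0.33, 0.25, 0.15 and 0.12 with a mean of 0.21 (SD 0.10, adjusted p = 1.2e-06). *Opalin*, a membrane glycoprotein of oligodendrocytes, differed by 0.32, 0.18, 0.15 and 0.09 with a mean of 0.18 (SD 0.10, adjusted p = 2.2e-05). All 4 of these genes kept 1 sign in the 4 libraries. The connexin gene *Gjc3* was called lower, at -0.11 (SD 0.04, adjusted p = 0.016; called in 2 of the 6 fits that left out a library or a mouse). Over the myelin list 5 of 26 tested genes were called higher, 1 lower and 20 neither, beside 1.77% higher and 1.46% lower of all 9158 genes. The median difference of the list was 0.03, beside 0.0012 over all genes. *Mbp* at 0.03, *Mag* at -0.02 and *Mog* at 0.08 were not called. Within finer cluster 5 alone *Cd9* (0.21) was called, and *Cldn11* (0.16, adjusted p = 0.15), *Mal* (0.05, adjusted p = 0.87) and *Opalin* (0.10, adjusted p = 0.57) did not pass.

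The other genes among the 15 highest were of several kinds. *Neat1*, the long non-coding RNA of paraspeckles, had 2.04, 2.09, 2.04 and 2.21 in positive and 1.87, 1.74, 1.85 and 1.88 in negative cells, a difference of 0.26 (SD 0.09, adjusted p = 4.1e-09). *Trf*, the iron carrier transferrin, differed by 0.22, 0.15, 0.17 and 0.22, with a mean of 0.19 (adjusted p = 2.5e-06). *Tmsb4x*, which binds actin monomers, differed by 0.17 to 0.21 over the libraries with a mean of 0.19 (SD 0.02, adjusted p = 2.8e-06). Each was higher in positive cells of 4 of 4 libraries, as were the rest of the 15. *Tmed10*, a cargo receptor between endoplasmic reticulum and Golgi, had a mean difference of 0.22. The choline transporter gene *Slc44a1* had 0.22 and *Shtn1*, which encodes shootin-1, 0.22 (SD 0.05). *Tppp3*, of the tubulin polymerisation promoting family, had 0.21, and the semaphorin gene *Sema4d* 0.20.

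A channel and its partner were among the lowest differences. *Hcn2* encodes a hyperpolarisation-activated cation channel and lies at chr10:79716634-79736108 on the plus strand, and *Pex5l*, at chr3:32949408-33143247 on the minus strand, encodes TRIP8b, known as an auxiliary subunit of HCN channels. *Hcn2* had 0.71, 0.77, 0.64 and 0.96 in positive and 1.15, 1.08, 1.05 and 1.36 in negative cells. Every positive value was below every negative value, and the mean difference was -0.39 ± 0.02 (SE; SD 0.05, adjusted p = 2.0e-17), with a UMI in 52.4% against 63.6% of cells. *Pex5l* had 2.38, 2.15, 2.24 and 2.02 against 2.79, 2.62, 2.58 and 2.49. It did not overlap between the groups either, and differed by -0.42 ± 0.03 (SE; SD 0.06, adjusted p = 2.9e-16).

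Enzymes and a lipid carrier were lower too. *Ptgds*, prostaglandin D2 synthase, had 7.45, 7.43, 7.29 and 7.24 in positive and 7.86, 7.70, 7.74 and 7.59 in negative cells, again without overlap, a difference of -0.37 (SD 0.08, adjusted p = 8.4e-14). *Glul*, glutamine synthetase, differed by -0.28, -0.27, -0.47 and -0.38 with a mean of -0.35 (adjusted p = 1.3e-12). *Apoe*, the lipid carrier apolipoprotein E, differed by -0.27, -0.25, -0.16 and -0.26 with a mean of -0.24 (adjusted p = 2.0e-08). Both were lower in positive cells of 4 of 4 libraries, although the level of *Apoe* itself ranged over 2.77 to 4.15 among the positive groups, so that its groups overlapped between libraries. *Fbxo2* (-0.26), *Spock3* (-0.26), the transcription factor gene *Etv1* (-0.25), the G protein subunit gene *Gng11* (-0.24) and the cytokine gene *Mif* (-0.22) complete the 10 lowest. Oligo1 cells of the same libraries had lower mean levels of all 10 than *C4b*-positive Oligo3 cells, for example 1.46 for *Pex5l*, 5.92 for *Ptgds* and 2.18 for *Apoe*.

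Mitochondrially encoded transcripts were lower as a group. All 13 tested mt- genes had a difference below 0, from -0.20 to -0.01 with a median of -0.14, and 10 of 13 were called lower, beside 1.46% of all genes. The largest was *mt-Nd3* at -0.20 (SD 0.10, adjusted p = 5.4e-06). These genes are the numerator of the mitochondrial share given above, and the part of that share in the other differences was not tested.

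Few complement genes were frequent enough to test. Of 24 genes on the list 5 were tested, of which 2 were called higher and 1 lower, beside 1.77% and 1.46% of all genes. *Masp1*, a protease of the lectin pathway, had 0.26, 0.28, 0.19 and 0.22 in positive and 0.15, 0.12, 0.08 and 0.10 in negative cells. The groups did not overlap, and the difference was 0.12 ± 0.01 (SE; SD 0.02, adjusted p = 6.9e-10), with a UMI in 26.1% against 13.1% of cells. *Cd59a*, an inhibitor of the membrane attack complex, differed by 0.20, 0.08, 0.39 and 0.12, a mean of 0.20 (SD 0.14, adjusted p = 1.7e-07; 0.34 when outlying genes were given a spread nearer their own). *Csmd2*, which encodes a protein with complement control domains, was lower at -0.05 (SD 0.01, adjusted p = 0.003; called in 3 of the 6 fits that left out a library or a mouse). *C4a*, the close paralogue of *C4b*, had a UMI in 1.15% of positive and 0.917% of negative cells and was not tested. Of 5 tested serpin genes *Serpina3n* and *Serpind1*, heparin cofactor II (0.10, SD 0.08, adjusted p = 1.4e-05), were called higher and none lower. Without mouse 3 *Serpind1* was at 0.04 and was not called.

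Among 11 tested genes of major histocompatibility complex class I and of the interferon response *H2-D1* passed the filter only through *C4b*-positive cells, and of the other 10 genes 4 were called higher and none lower, beside 1.77% and 1.46% of all genes. *H2-D1*, a class I heavy chain, had a UMI in 11.4% of positive and 4.80% of negative cells, a level difference of 0.12 (SD 0.05). *B2m*, the light chain, differed by 0.05 (SD 0.04, adjusted p = 0.028; called in 2 of the 6 fits that left out a library or a mouse). *Ifi27* (0.11) and *Xaf1* (0.10) were called as well, and each was called in 4 of those 6 fits. *Stat2* (0.05, SD 0.02, adjusted p = 0.041) was not called in the depth-matched fit (adjusted p = 0.087) and in none of those 6 fits. Of 13 tested genes of the STAT3 axis 2 were higher and none lower, beside the same 1.77%. *Stat3* itself, a transcription factor downstream of cytokine receptors, had 0.53, 0.66, 0.56 and 0.58 in positive and 0.37, 0.47, 0.39 and 0.47 in negative cells, a difference of 0.16 (SD 0.04, adjusted p = 3.5e-07). *Cebpd*, a transcription factor of the acute phase, had a UMI in 16.3% against 7.70% of cells (difference 0.09, SD 0.03, adjusted p = 4.3e-08).

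The genes that the study named for Oligo1 were chosen on these libraries, so their direction here is not independent evidence. Of 9 such genes 4 were frequent enough to test. Of these *Snx10*, at 0.04, passed the filter only through *C4b*-positive cells, and the other 3 were called higher, beside 1.77% of all genes: *Trf*, *Serpina3n* and *Anxa2* (0.06, SD 0.02, adjusted p = 1.4e-06). *Anxa2*, a membrane-binding annexin, had a UMI in 12.4% against 5.42% of cells. *Plvap*, *Tagln2*, *Flnc*, *Emp3* and *Bcl3* had a UMI in 1.13 to 4.87% of positive cells on average and were not tested.

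The metabolic, stress and structural lists are read beside the 3.23% of all genes that were called. None of 23 tested cholesterol synthesis genes was called, with differences from -0.02 to 0.05, and none of 18 tested fatty acid synthesis genes, from -0.07 to 0.04. None of 8 tested TGF-beta pathway genes and none of 7 tested immediate early genes was called, and 1 of 25 stress response genes was, the mitochondrial folate enzyme gene *Aldh1l2* (0.07, SD 0.01, adjusted p = 2.8e-05). A count of 0 or 1 in lists of this size is near that share. Among 18 lipid transport genes *Apod* was called higher (0.09, SD 0.03, adjusted p = 0.047) and *Apoe* and *Fabp5* lower (*Fabp5* at -0.19, SD 0.06, adjusted p = 4.7e-06). Of 11 iron genes *Trf* and the ferritin heavy chain gene *Fth1* (0.12, SD 0.03, adjusted p = 0.0059; called in 3 of the 6 fits that left out a library or a mouse) were higher. Of 27 lysosomal genes *Psap* alone was called (0.10, SD 0.07, adjusted p = 0.035), and neither *Psap* nor *Apod* was called in the depth-matched fit, and in 1 and 0 of the 6 fits that left out a library or a mouse. Annexin, S100 and actin genes went both ways. Of 9 annexin and S100 genes 2 were called higher, *Anxa2* and *Anxa4* (0.03), of which *Anxa4* passed the filter only through *C4b*-positive cells. *S100a1* (-0.18) and *S100a16* (-0.13, SD 0.05; called in 3 of the 6 fits that left out a library or a mouse) were lower. Of 20 actin-linked genes *Tmsb4x*, *Tmsb10* (0.15) and *Msn* (0.04; called in 1 of the 6 fits that left out a library or a mouse) were higher and *Fscn1* (-0.21) lower. Of 17 genes that mark subtypes of mature oligodendrocytes 5 were higher, namely *Il33*, *Neat1*, *Opalin*, *Apod* and *Enpp6* (0.16), and *Ptgds* was lower.

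Markers of other cell types gave mixed directions. The 10 astrocyte markers together made 2.23 to 3.01 UMIs per 10000 in positive and 2.73 to 3.62 in negative cells, lower in positive cells of 4 of 4 libraries (exact permutation p = 0.13). The transporter gene *Slc1a2* (-0.21) and *Aldoc* (-0.12) were called lower and *Gfap* higher (0.05, SD 0.03, adjusted p = 0.00022), while *Aqp4*, a defining marker, had a UMI in 5.42% of positive and 5.47% of negative cells on average over libraries. Among cells at or below their library's median of astrocyte marker UMIs 132 genes were called, and *Serpina3n* (0.17), *Il33* (0.54), *Hcn2* (-0.33) and *Ptgds* (-0.33) were among them. Of the markers by which these cells were chosen, *Slc1a2* (-0.05), *Aldoc* (-0.04) and *Gfap* (0.03) were not called there. The 12 microglial genes made 0.152 to 0.226 UMIs per 10000 in positive and 0.142 to 0.215 in negative cells. A count of 0 in lists of a few genes is near the 3.23% of all genes that were called. The 1 gene tested of each of the precursor, neuron and microglia lists and the 4 of the erythrocyte list were not called. *Foxj1* of the ependymal list was (0.06, SD 0.08, adjusted p = 0.045; called in 2 of the 6 fits that left out a library or a mouse), while *Tmem212* of that list was at 0 in all groups.

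The genes with the highest differences were followed over the number of *C4b* UMIs per cell, as a description. *Serpina3n* had a UMI in 6.07% ± 2.08 (SD, n = 4 libraries) of cells without *C4b*, 12.1% ± 2.01 of cells with 1 *C4b* UMI, 18.3% ± 4.53 with 2 and 31.0% ± 4.53 with 3 or more. The order was the same in each of the 4 libraries. *Il33* had a mean level of 1.54, 1.87, 2.14 and 2.30 over the same steps. For *Cldn11* the means were 4.73, 4.91, 5.01 and 5.15, and for *Cd9* they were 3.20, 3.33, 3.49 and 3.54. *Cldn11* and *Cd9* were higher at each step in all 4 libraries, and *Il33* in 1 of them. *Neat1* had means of 1.84, 1.91, 2.10 and 2.20, but no library kept this order: it was 1.87, 1.86, 1.83 and 2.20 in hippocampus of mouse 3 and 1.85, 2.22, 1.94 and 1.91 in cortex of mouse 3. *Ly6a* had 0.34, 0.41, 0.67 and 0.87, with cortex of mouse 3 at 1.19 among its 21 cells with 2 UMIs. With at least 2 *C4b* UMIs against none, 333 genes were called, 261 of them also among the 296.

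**Figure D4:**
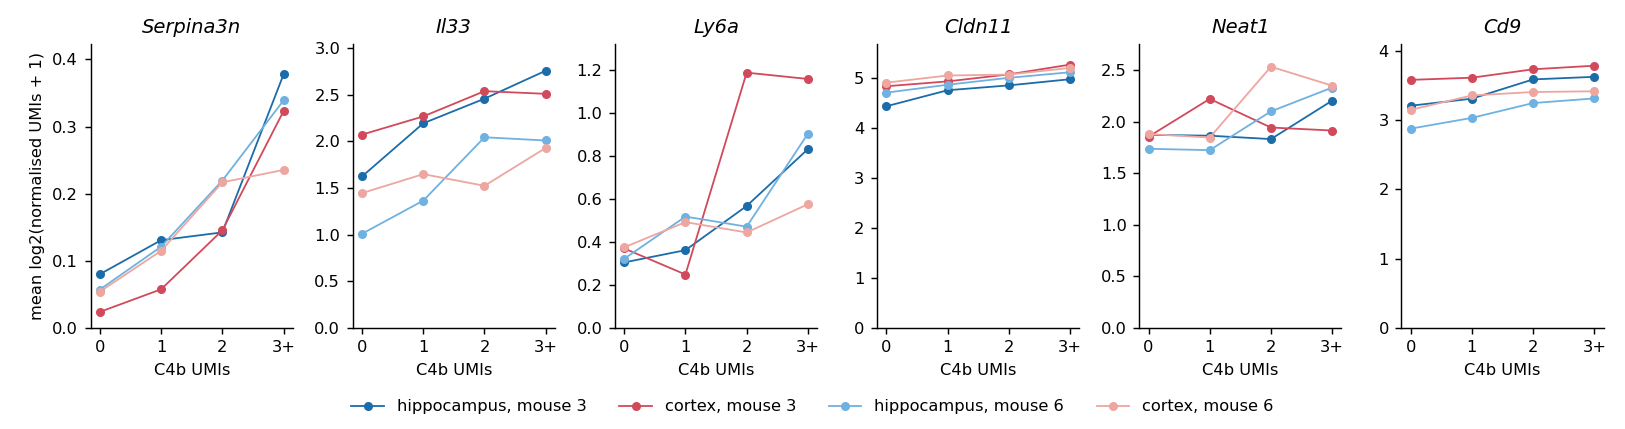
Mean level, log2(normalised UMIs + 1), of *Serpina3n* and the 5 genes with the highest difference in KO Oligo3 cells with 0, 1, 2 or 3 or more *C4b* UMIs, 1 line per library. *Serpina3n*, *Cldn11* and *Cd9* are higher at each step in every library, and the step with 2 UMIs holds 21 to 55 cells of a library.

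Leaving out the cells that carried *Serpina3n* kept many of the calls. Among cells without a *Serpina3n* UMI 190 genes were called between *C4b*-positive and *C4b*-negative cells, 183 of them also in the comparison of all cells. *Il33* (0.55), *Ly6a* (0.27), *Cldn11* (0.29), *Hcn2* (-0.40), *Pex5l* (-0.42) and *Ptgds* (-0.34) were among them. The finer clusters were then held fixed. With negative cells matched to the positive cells' shares of finer clusters 3 and 5, 223 genes were called, and *Serpina3n* was at 0.17, *Hcn2* at -0.27 and *Glul* at -0.23. *Gng11* went from -0.24 to -0.11 and *Mal* from 0.21 to 0.14, and *S100a16* was not called (-0.09, adjusted p = 0.081 by limma). Within finer cluster 3 alone 266 genes were called and within finer cluster 5 alone, which held fewer of the cells, 18, among them *Serpina3n* (0.13), *Il33* (0.41), *Ly6a* (0.15), *Neat1* (0.42) and *Pex5l* (-0.24). Of 61 named genes 50 lost the call in finer cluster 5 alone. Among these were *Hcn2* (-0.09), *Ptgds* (-0.15), *Glul* (-0.10), *Gng11* (-0.03) and *Shtn1* (0.05).

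The same split was made in WT Oligo3 cells, where 269 of 4363 cells were *C4b*-positive (47 to 87 a library), to ask whether it differs with genotype. In WT cells alone 6 of 9134 genes were called (0.0657%). *Apoe* (-0.25), *Glul* (-0.23) and *Hcn2* (-0.21) were lower and *Ly6a* (0.13) higher, the signs they had in KO cells. *Crebbp* and *H2-D1* were the other genes called, of which *H2-D1* passed the filter in KO cells only through the positive ones. The difference between the genotypes was called for 13 of 9134 genes (0.142%). *Serpina3n* had 0.01, 0.12, 0.04 and 0.03 in positive WT cells of hippocampus of mice 1 and 4 and cortex of mice 1 and 4. Its difference was 0.04 in WT, and the KO difference exceeded it by 0.13. The filter here was on the mean share of cells of both genotypes. At such low WT levels *Serpina3n* passed it through KO cells, so no p is given. *Masp1* differed by 0.01 in WT, 0.11 less than in KO (adjusted p = 0.0075), and *Il33* by 0.16, 0.43 less than in KO (adjusted p = 0.0075). *Cd9*, *Slc44a1* and *Sparc* also had a higher difference in KO cells, and *Pex5l*, *Ptgds*, *Ldhb*, *Fbxo2*, *Spock3* and the long non-coding RNA *1700063D05Rik* a lower one. The remaining gene of the 13, *Gabrr2*, was at 0.04 in KO and -0.03 in WT and passed the filter in KO cells only through the positive ones. For *Pex5l* the 4 WT differences were -0.06, -0.49, 0.18 and 0.09, against -0.47 to -0.34 in KO. For *Apoe* the KO minus WT value was 0.01 (95% interval -0.12 to 0.14). Positive WT cells held less *C4b* than positive KO cells, so the same threshold did not mean the same level. The count of 13 genes was 1 without hippocampus of KO mouse 3 and 2 without hippocampus of WT mouse 1.

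**Figure D5:**
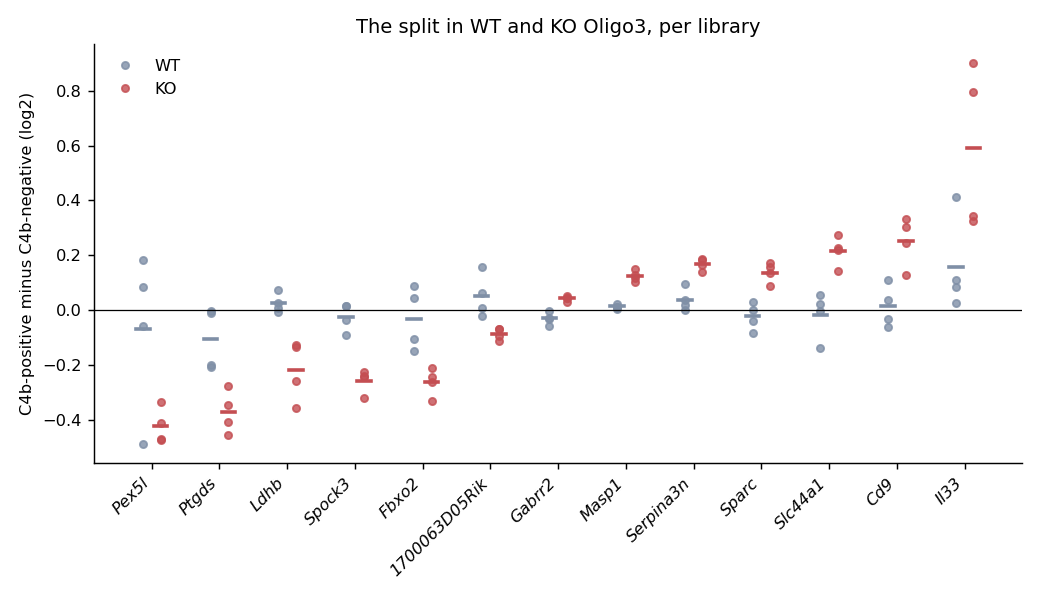
Within-library difference (log2) between *C4b*-positive and *C4b*-negative Oligo3 cells in 4 WT and 4 KO libraries, for the 13 genes whose difference between genotypes was called; points are libraries and short bars are means. *Serpina3n* has a mean of 0.17 in KO and 0.04 in WT.

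The split was also compared among KO clusters. In KO Oligo2, with 663 of 1275 cells positive, 250 of 9264 genes were called (2.7%), and in KO Oligo4, with 397 of 653, 31 of 9310 (0.333%). The Oligo3 difference was tested against that of Oligo2 in the same libraries, and 44 of 9264 genes were called (0.475%). The difference was higher in Oligo3 for 11 of them and lower for 33. *Serpina3n* differed by 0.73 in Oligo2, and Oligo3 minus Oligo2 was -0.57 (adjusted p = 3.5e-21). *Hcn2* differed by -0.05 in Oligo2 (Oligo3 minus Oligo2 -0.34, adjusted p = 5.2e-07), so that it was lower with *C4b* in Oligo3 and not called in Oligo2. *Mal* (0.21, adjusted p = 0.015) and *Shtn1* (0.20, adjusted p = 0.015) differed more in Oligo3, being at 0.01 and 0.02 in Oligo2. *Cd9* (-0.19) and *Neat1* (-0.19) differed less in Oligo3. The count of 44 was 18 without cortex of mouse 3, 21 without hippocampus of mouse 6 and 23 without hippocampus of mouse 3.

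Against Oligo4, 8 of 9310 genes were called (0.0859%), all with a lower difference in Oligo3. Among them were *Neat1* (-0.42), *Hcn2* (-0.33), *Spock3* (-0.27), *Serpina3n* (-0.19) and *Anxa2* (-0.16). In Oligo3 itself *Neat1* (0.26), *Serpina3n* (0.17) and *Anxa2* (0.06) were higher in *C4b*-positive cells, by less than in Oligo4. *Hcn2* (-0.39) and *Spock3* (-0.26) were lower in positive Oligo3 cells. *Emp3* was counted among the 8 but was under the 5% filter in Oligo3, so that it entered only through Oligo4. Without hippocampus of mouse 3 none was called (0 of 9310 by limma, 528 at an unadjusted p of 0.05), and without cortex of mouse 3, where Oligo4 has 47 cells, 15 were. The clusters were drawn on the expression of these cells, and the part of the clustering in the differences between clusters was not tested.

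Promoters of *Serpina3n* and of genes with the highest differences were searched for 3 short motifs, bound by STAT, interferon response and NF-kB factors. Windows of 300 bases, from 250 before to 50 after each start site, came from a table of RefSeq promoters (GRCm38.p6). Of the 7 genes looked up, *Serpina3n*, *Il33*, *Cldn11* and *Cd9* were matched in that table, with 5 windows in all, and *C4b*, *Ly6a* and *Neat1* were not analysed here. TTCNNNGAA, the STAT motif, reads the same on both strands and was in none of the windows, beside 8.30% of all 32851 windows. The core of the interferon-stimulated response element (GAAA, 2 free bases, GAAA, on either strand) was in none of them either, beside 3.44%. A loose form of the NF-kB motif (GGG, 5 free bases, CC, on either strand) was in the windows of *Serpina3n* (4 matches, in 2 overlapping pairs), *Cd9* (3) and *Cldn11* (1) and in neither window of *Il33*, beside 50.8% of all windows. The windows with matches are shown 5′ to 3′ on the gene's strand, with the matched bases in capitals. They lie at chr12:104406458-104406757 (plus strand), chr6:125494711-125495010 (minus strand) and chr3:31149670-31149969 (plus strand).
Serpina3n: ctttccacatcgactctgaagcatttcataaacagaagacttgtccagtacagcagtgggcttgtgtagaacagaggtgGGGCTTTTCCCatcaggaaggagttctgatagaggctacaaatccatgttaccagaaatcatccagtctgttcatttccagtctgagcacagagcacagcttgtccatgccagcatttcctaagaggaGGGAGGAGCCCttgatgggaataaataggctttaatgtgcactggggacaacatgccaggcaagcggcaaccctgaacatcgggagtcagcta
Cd9: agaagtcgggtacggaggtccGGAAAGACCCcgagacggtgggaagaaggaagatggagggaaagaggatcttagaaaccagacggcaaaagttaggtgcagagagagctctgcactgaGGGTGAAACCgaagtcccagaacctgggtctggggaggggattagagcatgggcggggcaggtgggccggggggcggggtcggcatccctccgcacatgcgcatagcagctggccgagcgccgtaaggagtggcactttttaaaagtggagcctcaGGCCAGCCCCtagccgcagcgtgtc
Cldn11: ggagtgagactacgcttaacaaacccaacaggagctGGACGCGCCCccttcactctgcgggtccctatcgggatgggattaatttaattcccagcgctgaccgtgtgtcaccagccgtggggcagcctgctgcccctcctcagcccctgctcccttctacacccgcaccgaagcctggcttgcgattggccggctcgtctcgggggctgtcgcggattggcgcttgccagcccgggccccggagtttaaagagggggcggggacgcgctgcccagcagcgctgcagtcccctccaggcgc
A match at this frequency is a description of the letters only.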

How the data were processed

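The authors aligned 10x libraries to mm10 with Cell Ranger 5.0.0 and deposited, per the file headers and their methods, log2 values of UMI counts divided by scran size factors, with 1 added, for 18833 genes in 12581 cells, with cluster labels, the sum of UMI counts and the percent of mitochondrial UMIs per cell. Whole UMI counts were recovered from the deposited log2 values (100.0% whole within 0.001). No doublet caller was run here; the authors sorted and filtered cells before deposit, and the lowest sum was 5039 UMIs.

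Mean log2 values per group and library were differenced within the library and fitted with limma 3.58.1 in R 4.3.3, with a trend on the share of cells with a UMI, for genes in at least 5% of cells. The estimated correlation between libraries of a mouse was -0.237 and 0 was used. The depth-matched fit reweighted *C4b*-negative cells over 10 bins of depth. The library pairs both groups because they are cells of the same animal and tissue; deviations of the same library correlated across genes at 0.81 to 0.85, beside at most 0.57 for other libraries. Small tests were exact sign flips. The fits were also run on simulated data, of which no outcome is given here and on which no statement rests. UMI sums were fitted with edgeR 4.0.16 and DESeq2 1.42.0 as alternatives, and others were thinning to 5000 UMIs, other pseudocounts and filters, 5 or 20 bins, single tissues, and leaving out libraries or mice. Finer clusters, low astrocyte UMIs, the tissue contrast, and robust or no moderation were added after seeing the data.

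Genes were named from fixed lists, as the 15 highest and 10 lowest called in both fits with 1 sign in 4 libraries, and as the genes the study names for Oligo1; *Crebbp* and genes named only for a genotype difference were named after their values were seen. The members, lists and rules were chosen with earlier results of these data known. Some members of the lists are counted but not reported by name here.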

Additional observations from a re-analysis of the deposited data

Results flagged for a closer look

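In 5 of 50 groups of 4 libraries 1 library lay far from the other 3, beside about 1 in 20 groups by chance. The *Spock3* difference was -0.32 in hippocampus of mouse 3. The astrocyte marker sum of *C4b*-positive cells was 3.01 UMIs per 10000 in 1 library and the endothelial sum 2.78, which *Ly6a* carries. Among *C4b*-negative cells the mural sum reached 0.411 and the erythrocyte sum 8.69 UMIs per 10000 in 1 library each.

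The difference with *C4b* itself differed between KO and WT Oligo3 cells by limma for 13 genes. KO minus WT was higher for *Il33* (0.43), *Cd9* (0.24), *Slc44a1* (0.23), *Sparc* (0.16), *Serpina3n* (0.13), *Masp1* (0.11) and *Gabrr2* (0.073). Of these *Gabrr2* passed the filter in KO cells only through the positive ones, and *Serpina3n*, low in WT cells, passed through KO cells. KO minus WT was lower for *Pex5l* (-0.35), *Ptgds* (-0.27), *Ldhb* (-0.24), *Spock3* (-0.23), *Fbxo2* (-0.23) and *1700063D05Rik* (-0.14).

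Between KO clusters, Oligo3 minus Oligo2 was 0.21 for *Mal*, 0.20 for *Shtn1*, -0.19 for *Cd9*, -0.19 for *Neat1*, -0.34 for *Hcn2* and -0.57 for *Serpina3n*. Oligo3 minus Oligo4 was -0.10 for *Emp3*, which was under the filter in Oligo3 and entered through Oligo4, -0.27 for *Spock3*, -0.16 for *Anxa2*, -0.33 for *Hcn2*, -0.19 for *Serpina3n* and -0.42 for *Neat1*. The *Il33* difference was 0.51 larger in hippocampus than in cortex.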

How the results depend on the processing

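The count of 296 genes called between *C4b*-positive and *C4b*-negative cells depended on the processing. Thinning cells to 5000 UMIs left 145 calls, DESeq2 102, limma without a trend 168, cells without a *Serpina3n* UMI 190, cortex alone 112, finer cluster 5 alone 18, cells low in astrocyte UMIs 132, and limma without moderation 0. The pairing by library mattered: with no replicate block, as unpaired groups, 1 gene was called, and with a replicate block by mouse 346 (338 depth-matched). Leaving out 1 library gave 157 to 281 calls, the lowest without hippocampus of mouse 3, and leaving out mouse 3 or mouse 6 gave 151 or 156. In the depth-matched fit leaving out 1 library gave 136 to 258 calls, with 136 without hippocampus and 183 without cortex of mouse 3. Of 61 named genes compared over all settings (1762 values), 1377 values kept their sign and call, 384 lost the call, among them *Serpina3n* in cells without a *Serpina3n* UMI, which is 0 by construction, and 1 turned its sign: *S100a16* was at 0.011 in finer cluster 5 alone.

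For KO minus WT, edgeR called 38 genes, log2(mean + 0.1) called 8, and leaving out 1 library gave 1 to 25. Oligo3 minus Oligo2 gave 18 to 59 genes without 1 library. Oligo3 minus Oligo4 gave 1 gene with log2(mean + 0.1) and 0 to 15 without 1 library. The difference in median UMIs was -117 to 109 without 1 library, above 0 at 109 without cortex of mouse 3 and at 16.8 without cortex of mouse 6. Causes of these changes were not tested. Genes with a UMI in under 5% of cells were not tested, and 4 libraries allow no exact p below 0.13.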
